A study of Homo sapiens with 6 samples.

Results

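A set of 10 genes that serve as a transcriptional readout of the MAP kinase pathway was examined in RNA-seq of cells labelled NCI-H929 with reduced IGF2BP1. They were picked by symbol from the count table, as immediate early genes and as genes that ERK induces to dampen its own signal, and all 10 of the 10 listed symbols were among its 20030 genes. They are the AP-1 subunits FOS, FOSL1, JUN and JUNB, the immediate early factor EGR1, the ERK phosphatases DUSP4 and DUSP6, the Sprouty inhibitors SPRY2 and SPRY4, and the ETS factor ETV5. The data comprised 6 libraries. The labels assign 3 IGF2BP1-KD libraries to H929 cells with knockdown of IGF2BP1, an RNA-binding protein that reads m6A. They assign 3 IGF2BP1-NC libraries to the negative control of the same line. H929 is an established human multiple myeloma line, and no treatment, time or stimulus separates the libraries beyond the knockdown. By the supplementary methods, the knockdown lines were stable lentiviral transductants with a short hairpin RNA (shRNA) vector that confers puromycin resistance. Nothing states that the 3 libraries of a group came from separate cultures, so each p-value measures the spread between these libraries, which may be technical.

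ERK, the last kinase of the RAS-RAF-MEK-ERK cascade, enters the nucleus when growth factors or oncogenes activate the pathway and phosphorylates ternary complex factors bound beside serum response factor. Genes such as FOS and EGR1 are then transcribed within minutes, with no need for new protein, and their products join JUN proteins as AP-1 or bind GC-rich sites to switch on later genes. A further set of ERK-induced genes closes the loop: DUSP4 and DUSP6 dephosphorylate ERK, and Sprouty proteins block the pathway above RAF. In multiple myeloma this pathway is often mutated, and transcripts of the feedback genes are commonly used as a measure of its output.

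The supplementary methods list 2 target sequences for IGF2BP1 shRNAs, and which of them the libraries carry is not given in the sources used here. They are shown because a guide can also act on other transcripts through its seed, and the capitals mark the bases that pair with guide bases 2 to 8.
Target 1: cagggaagaatctATGGCAAa
Target 2: acagtagagaactGTGAGCAa
Neither target was found whole in the transcript of any of the 10 genes. The 3′ UTRs of the 8 genes that were expressed well enough for a test held neither seed site. The seed site of target 1 was in the 3′ UTR of DUSP4 and DUSP6, and that of target 2 in DUSP6, against 12.3% and 11.7% of all tested genes with an annotated 3′ UTR.

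IGF2BP1 itself checked the labels. Its FPKM (fragments scaled to transcript length and library total) was 43.7 to 49.1 in IGF2BP1-NC and 12.8 to 13.5 in IGF2BP1-KD, a log2 fold change of -1.85. Total counts per library were 16885449 to 18112179, so that a count of 0 in a library allows up to 3 counts, which covers counting error only. The labelled cell type was checked against its markers. Of 13 plasma cell genes, 7 never exceeded 3 counts (CD27, CD38, FCRL5, IRF4, POU2AF1, TNFRSF13B and TNFRSF17), whereas all 15 erythroid genes examined were above 1 CPM (counts scaled to the library total) everywhere. The summed level of the plasma cell list was 77.2 to 162 CPM in IGF2BP1-NC and 81.1 to 87.2 CPM in IGF2BP1-KD, and that of the erythroid list 7770 to 8950 and 8030 to 8820 CPM. Summed granulocyte and monocyte markers were 38.8 to 51.2 CPM in IGF2BP1-NC and 123 to 302 CPM in IGF2BP1-KD. Most of that rise lay in a single gene of the list, PRG2. It had 105 to 175 counts in IGF2BP1-NC and 1473 to 4026 in IGF2BP1-KD, with the highest value in KD library 3. These marker levels go against the labelled myeloma cell type, and the labels are used here only as names. The part of these cell identities in the results below was not tested, and in bulk RNA fewer cells that express a gene cannot be told apart from less of its RNA per cell.

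IGF2BP1-NC library 1 stood apart in the genes studied here. JUN was among 45 of 11994 tested genes that were at least 2-fold above every other library in this one, and the AP-1 partners ATF3 and JDP2, the phosphatase DUSP8 and the heat shock gene HSPA6 were also among them. No more than 4 genes did so in any other library except IGF2BP1-KD library 3, where 53 did, none of them among the 10. Results on the 10 genes that rest on either library are given with and without it.

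Of the 10 genes, 8 had enough counts for edgeR's quasi-likelihood test, in which a gene was called at a Benjamini-Hochberg adjusted p under 0.05 over all 11994 genes tested. SPRY4 rose in IGF2BP1-KD, ETV5 and JUNB fell, and FOS, FOSL1, JUN, EGR1 and SPRY2 did not pass. The 3 calls of 8 stood beside 28.2% of all tested genes, 1 higher beside 13.7% and 2 lower beside 14.5%. The median log2 fold change of the 8 was -0.12, and that of all tested genes was -0.0048. The groups did not overlap for the same 3 genes, beside 45.9% of all tested genes. Calls among the 10 thus went in both directions, at a share near the background. None of the 3 reached a 2-fold change, which 4.73% of all tested genes did while being called.

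**Figure D1:**
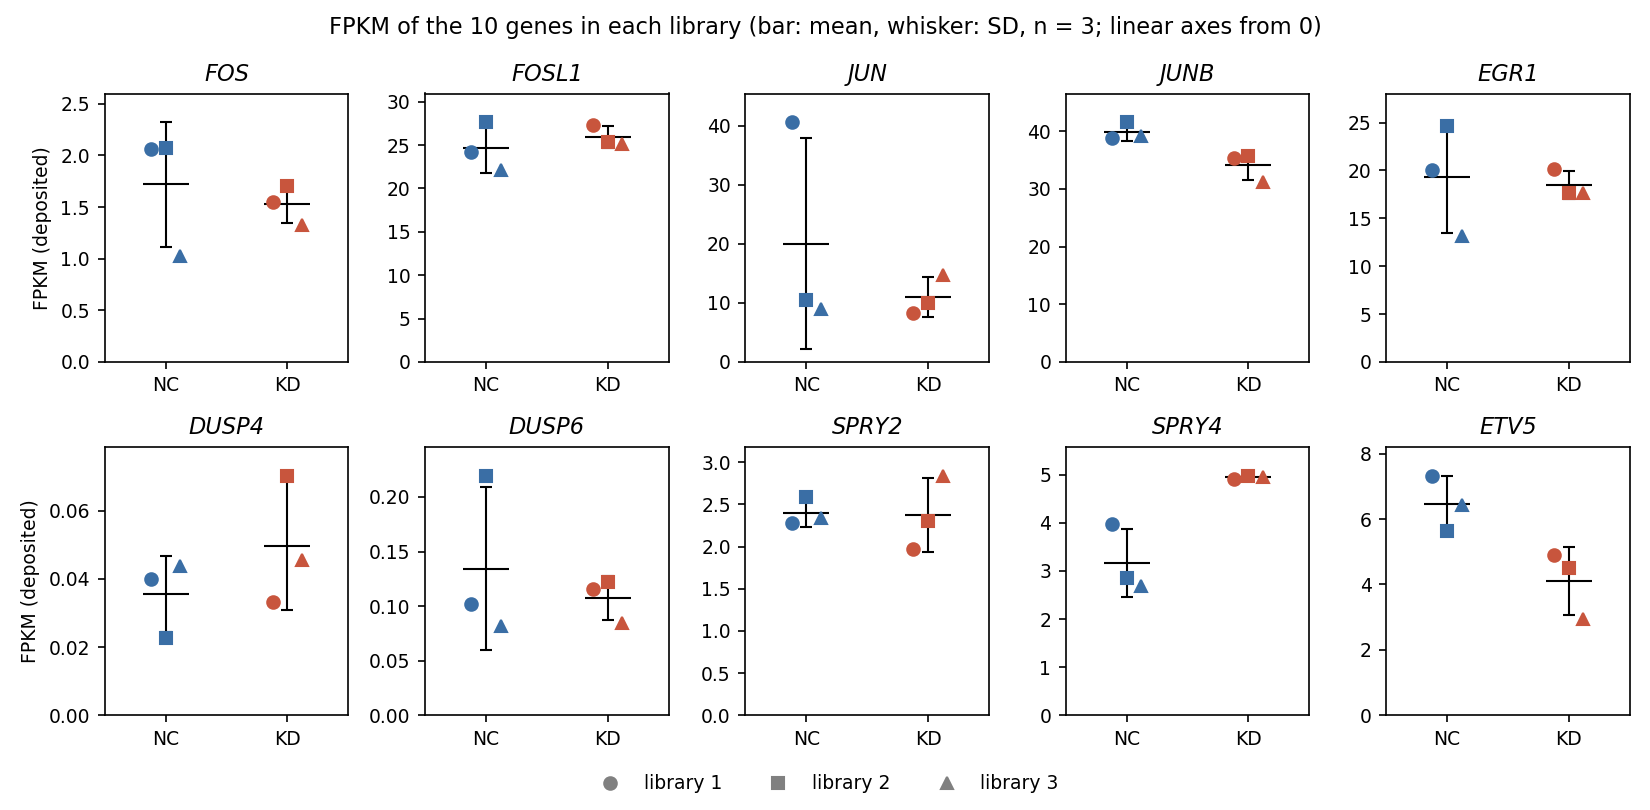
FPKM of the 10 genes (y axes, linear from 0, each gene on its own scale) in the 3 IGF2BP1-NC libraries (blue) and the 3 IGF2BP1-KD libraries (red), with the mean as a bar and the SD as a whisker. SPRY4 lay higher and ETV5 and JUNB lower in every IGF2BP1-KD library, JUN was 40.6 FPKM in IGF2BP1-NC library 1 against 8.33 to 14.8 elsewhere, and DUSP4 and DUSP6 stayed under 0.3 FPKM.

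Expressed per transcript length, the 10 genes spanned a wide range. JUNB was the most abundant in the mean FPKM of IGF2BP1-NC, followed by FOSL1, JUN, EGR1, ETV5, SPRY4, SPRY2, FOS, DUSP6 and DUSP4. The ranges of FOSL1 and JUN overlapped in the IGF2BP1-NC libraries, as did those of JUN and EGR1, and the other neighbours in this order did not overlap within either group. JUN stood above EGR1 through IGF2BP1-NC library 1 alone, since the other controls had 10.5 and 8.89 FPKM of JUN and 24.6 and 13.2 FPKM of EGR1. In IGF2BP1-KD JUN and EGR1, and ETV5 and SPRY4, stood in the opposite order, with EGR1 at 17.6 to 20.2 FPKM above JUN at 8.33 to 14.8 FPKM, and SPRY4 at 4.92 to 4.99 FPKM above ETV5 at 2.94 to 4.89 FPKM. JUNB stood above 90.5% of all 20030 genes in mean FPKM, FOSL1 above 86.2%, EGR1 above 82.5% and JUN above 79.8%. ETV5, SPRY4, SPRY2 and FOS, between 52.5% and 63.8%, were near the middle of all genes. Among the tested genes alone they stood lower, above 20.7% (FOS) to 39.6% (ETV5) of them. FOS was thus low in both groups, while its relative FOSL1 was abundant.

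FOS, on the plus strand of chromosome 14 at chr14:75278826-75282230 (GRCh38, 4 exons), encodes the classic AP-1 subunit that cells make briefly after a growth signal. Its FPKM was 2.06, 2.07 and 1.02 in IGF2BP1-NC libraries 1, 2 and 3 and 1.55, 1.70 and 1.33 in the IGF2BP1-KD libraries, from 40 to 78 counts. The KD values fell within the range of the controls. The log2 fold change was -0.18 (95% interval -0.77 to 0.42, edgeR adjusted p = 0.662), or 0.585 to 1.34 times the control level. Its mRNA is a textbook case of rapid decay through AU-rich elements. The 3′ UTR holds 5 ATTTA pentamers, and the nonamer TTATTTATT, shown in capitals, starts at its base 646.
FOS 3′ UTR: tttttaatTTATTTATTaagatgga
TTATTTATT occurred in 9.15% of the tested genes with a 3′ UTR and, among the 10, also in DUSP4. ATTTA occurred in all 10 and in 72.0% of the tested genes, so it does not set the 10 apart.

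The promoters of FOS, JUN and EGR1 held sequences known from studies of how immediate early genes are induced. They are shown because these 3 genes are the immediate early readout itself. Sequences are from RefSeq (GRCh38.p14), with the motif in capitals, and the window searched on both strands ran from 250 bases before to 50 after the start of transcription, for the 9 of the 10 genes that had an entry.
FOS, chr14:75278758-75278777, plus strand: agcccgTGACGTTTacactc
JUN, chr1:58784101-58784120, minus strand: ttggggTGACATCAtgggct
EGR1, chr5:138465369-138465388, plus strand: tcctgCCATATTAGGgcttc
EGR1, chr5:138465391-138465410, plus strand: gcttcCCATATATGGccatg
The FOS match TGACGTTT, a variant of the cyclic AMP response element, was 64 bases before the start and occurred in 0.487% of 35116 promoters. The JUN match TGACATCA, to which JUN-ATF2 dimers are known to bind, was 67 bases before the start and occurred in 2.61% of promoters. Both were searched for as the variants known from FOS and JUN themselves, so their matches in these genes are no finding. EGR1 had a pair of CArG boxes, the binding sequence of serum response factor, at 105 and 83 bases before the start, and 1.29% of promoters had at least 1. None of the 9 promoters held the AP-1 site TGACTCA (4.95% of promoters), the full element TGACGTCA (1.85%), the EGR site GCGTGGGCG (0.795%) or the ETS site CCGGAAGT (4.14%). A match is a description of the letters and no evidence of binding, and its absence says only that these letters are not in this window.

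FOSL1 (chr11:65892049-65900573, minus strand, 4 exons) encodes FRA1, the AP-1 subunit that accumulates under sustained ERK activity. It had 24.1, 27.6 and 22.1 FPKM in IGF2BP1-NC and 27.4, 25.4 and 25.1 FPKM in IGF2BP1-KD. The groups overlapped, and the log2 fold change was 0.065 with a 95% interval of -0.14 to 0.27 (edgeR adjusted p = 0.630). As a fold, this interval runs from 0.910 to 1.20, among the narrowest of the 8. FOSL1 made up 84.9% to 91.1% of the summed FPKM of the FOS family in the 6 libraries, with FOS at 4.22% to 7.41%, FOSB at 1.97% to 3.34% and FOSL2 at 1.78% to 7.26%. FOSL2, which encodes FRA2, rose from 0.522 to 0.697 FPKM in IGF2BP1-NC to 1.25 to 2.14 FPKM in IGF2BP1-KD, a log2 fold change of 1.39 (edgeR adjusted p = 0.0016). It stayed a minor part of the family.

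JUN (chr1:58776845-58784048, minus strand, a single exon) encodes c-Jun, which is induced by ERK and, more strongly, by the stress kinase JNK. Its FPKM was 40.6 in IGF2BP1-NC library 1, 10.5 and 8.89 in the other controls, and 8.33, 9.96 and 14.8 in IGF2BP1-KD. The first control library thus held 4.09 times the mean of the other controls. The log2 fold change of all 6 libraries was -0.86 with a 95% interval of -2.86 to 1.14 (edgeR adjusted p = 0.456). Without IGF2BP1-NC library 1 it was 0.17, of the opposite sign, and still not called (95% interval -0.63 to 0.96, adjusted p = 0.707). The sign of the difference in JUN thus rested on 1 library.

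Other stress-linked genes were high in the same library. ATF3, a stress-induced partner of JUN, had 1431 counts there and 196 to 252 in the other libraries, and its log2 fold change went from -1.43 with all 6 libraries to 0.19 without this one, uncalled both times (edgeR adjusted p = 0.362 and 0.297). DUSP8, a phosphatase specific for JNK and p38, had 233 counts there against 30 to 50, and went from -1.26 to 0.16. JDP2, a JUN dimerization partner, had 134 counts against 20 to 55 and went from -0.70 to 0.42, uncalled both times (edgeR adjusted p = 0.543 and 0.450), and HSPA6, a strictly stress-inducible HSP70, had 214 counts against 42 to 71 and went from -0.95 to -0.0087. Among the genes furthest above all other libraries, and named after their values were seen, were CHAC1 with 847 counts against 29 to 71 and DDIT4 with 17918 against 1280 to 1803. By this excess ATF3 had rank 4, DUSP8 5, HSPA6 15, JUN 18 and JDP2 27 of the 45 genes, so most of them were not the largest differences. The other 7 tested genes of the 10 did not share this excess: FOSL1, JUNB, EGR1 and SPRY2 were within 0.903 to 1.04 times the mean of the other controls in this library, FOS was 1.29 times, ETV5 1.19 times and SPRY4 1.40 times. What made this library differ was not tested.

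JUNB (chr19:12791486-12793315, plus strand, a single exon) encodes the JUN protein with the weaker activation domain, which can restrain c-Jun. It had 38.8, 41.5 and 39.2 FPKM in IGF2BP1-NC and 35.4, 35.7 and 31.1 FPKM in IGF2BP1-KD, or 39.8 ± 1.49 against 34.1 ± 2.54 (SD, n = 3 each). Every KD library was below every control. The fall was small, at a log2 fold change of -0.24 (SE 0.076, 95% interval -0.40 to -0.070, edgeR adjusted p = 0.0377). The call was kept without IGF2BP1-NC library 1, at -0.27, and lost when any other single library was left out. JUNB overlaps HOOK2 on the opposite strand, and HOOK2 (log2 fold change -0.13, edgeR adjusted p = 0.302) was not called. Whether the counting used strand is not stated.

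Within the JUN family, JUND was the largest part in every library, at 60.3% to 65.3% of the summed FPKM, with JUNB at 17.0% to 31.0% and JUN at 6.42% to 17.8%. JUND is a JUN protein found in resting cells that is less dependent on acute stimuli. It had 148, 95.9 and 90.4 FPKM in IGF2BP1-NC and 70.4, 69.9 and 69.7 FPKM in IGF2BP1-KD, and fell with a log2 fold change of -0.68 (edgeR adjusted p = 0.0446). Without IGF2BP1-NC library 1, the fall was -0.43 (edgeR adjusted p = 1.2e-04), but the call was lost on leaving out IGF2BP1-NC library 2 or any of the KD libraries. The summed FPKM of the family was 138 to 228 in IGF2BP1-NC and 114 to 116 in IGF2BP1-KD, without overlap. The FOSL1 to JUNB ratio of FPKM was 0.563 to 0.665 in the controls and 0.710 to 0.806 in IGF2BP1-KD. This ratio holds no values beyond those of JUNB and of FOSL1, which was not called, and its difference was not tested.

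**Figure D2:**
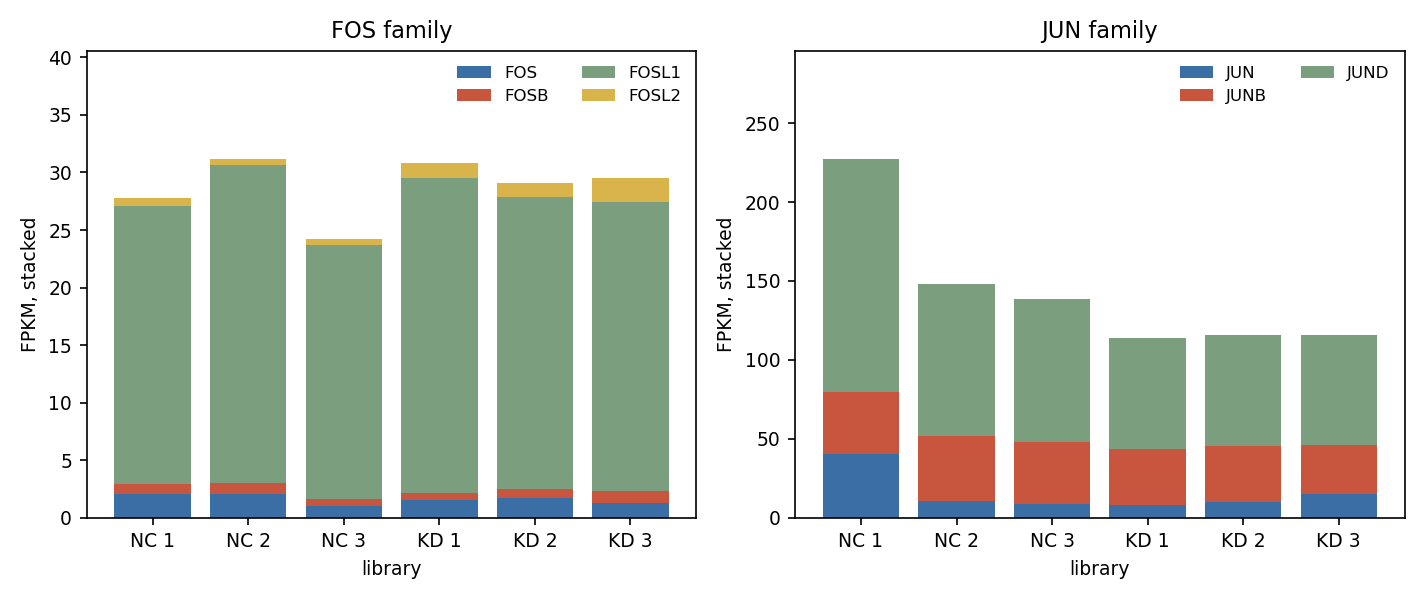
Stacked FPKM (y axes, linear from 0) of the FOS family members (left) and JUN family members (right) in each library (x axes, NC for IGF2BP1-NC and KD for IGF2BP1-KD). FOSL1 made up at least 84.9% of the left bars and JUND at least 60.3% of the right bars, and JUN took 17.8% in IGF2BP1-NC library 1.

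EGR1 (chr5:138465479-138469303, plus strand, 2 exons) encodes a zinc finger factor whose transcription depends closely on ERK and serum response factor. Its FPKM was 20.0, 24.6 and 13.2 in IGF2BP1-NC and 20.2, 17.6 and 17.7 in IGF2BP1-KD. The control libraries alone spanned the whole KD range. The log2 fold change was -0.068 (95% interval -0.64 to 0.51, edgeR adjusted p = 0.855), and it was 0.16 without IGF2BP1-NC library 2 and -0.28 without IGF2BP1-NC library 3. EGR1 was 99.1% to 99.7% of the summed FPKM of the EGR family. FOS and EGR1 were both lowest in IGF2BP1-NC library 3, at 1.02 and 13.2 FPKM.

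DUSP4 (chromosome 8, minus strand, 4 exons) and DUSP6 (chr12:89347235-89352501, minus strand, 3 exons) encode the inducible phosphatases that are among the most used markers of ERK activity. Here both were close to undetected. DUSP4 had 7, 4 and 8 counts in IGF2BP1-NC and 6, 12 and 8 in IGF2BP1-KD, which is 0.0227 to 0.0704 FPKM. DUSP6 had 6, 13 and 5 counts in IGF2BP1-NC and 7, 7 and 5 in IGF2BP1-KD, or 0.0813 to 0.220 FPKM. Neither passed the filter on low counts, and a difference in them was not detectable at this depth. Of the other MAP kinase phosphatases, DUSP1 took 31.3% to 50.1% of the summed FPKM and DUSP7 14.9% to 30.7%, while DUSP4 and DUSP6 each stayed under 1%.

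SPRY2 (chr13:80335976-80341126, minus strand, 2 exons) and SPRY4 (chr5:142310427-142326455, minus strand, 2 exons) encode Sprouty proteins, which are induced by ERK and block receptor signalling to RAS and RAF. SPRY4 had 3.97, 2.85 and 2.68 FPKM in IGF2BP1-NC and 4.92, 4.99 and 4.96 FPKM in IGF2BP1-KD, a mean of 3.17 ± 0.701 against 4.96 ± 0.0317 (SD, n = 3 each). All KD libraries lay above all controls, and they differed from each other less than the controls did. SPRY4 rose 1.56-fold, with a log2 fold change of 0.64 (SE 0.13, 95% interval 0.36 to 0.92, edgeR adjusted p = 0.0043). It was called under all 15 alternatives tried, and with each library left out the log2 fold change was 0.54 to 0.82, the highest without IGF2BP1-NC library 1.

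SPRY2 gave no call. It had 2.27, 2.59 and 2.33 FPKM in IGF2BP1-NC and 1.97, 2.30 and 2.84 FPKM in IGF2BP1-KD, and the KD libraries lay on both sides of the controls. The log2 fold change was -0.029 (95% interval -0.39 to 0.33, edgeR adjusted p = 0.909), and its sign depended on the scaling, since it was 0.0020 with upper-quartile factors. The SPRY4 to SPRY2 ratio of FPKM was 1.10 to 1.75 in IGF2BP1-NC and 1.74 to 2.49 in IGF2BP1-KD, so that the ranges met. SPRED2, which encodes a relative of the Sprouty proteins that recruits NF1, was the largest part of the Sprouty and SPRED genes at 51.9% to 58.8% of their FPKM, and SPRY4 went from 12.3% to 15.0% in the controls to 20.6% to 20.9% in IGF2BP1-KD.

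ETV5 (chr3:186046314-186110318, minus strand, 13 exons) encodes an ETS factor of the PEA3 group, whose transcripts follow receptor and ERK signalling in many tissues. It had 7.33, 5.65 and 6.42 FPKM in IGF2BP1-NC and 4.89, 4.49 and 2.94 FPKM in IGF2BP1-KD, or 6.47 ± 0.843 against 4.11 ± 1.03 (SD, n = 3 each). Every KD library lay below the controls, KD library 3 by the widest margin. ETV5 fell to 0.631 of the control level, a log2 fold change of -0.66 (SE 0.18, 95% interval -1.07 to -0.26, edgeR adjusted p = 0.0237). The call was lost without IGF2BP1-NC library 1 (-0.58, edgeR adjusted p = 0.0613) and without IGF2BP1-NC library 3, and it was kept without KD library 3, where the log2 fold change was -0.47. ETV5 exons overlap exons annotated to DGKG, a protein-coding gene on the same strand, and DGKG had only 2 to 31 counts in a library.

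Neither of the other PEA3 factors was called. ETV4 was the most abundant of the group, at 24.6, 19.4 and 15.4 FPKM in IGF2BP1-NC and 20.8, 17.7 and 16.5 FPKM in IGF2BP1-KD, with a log2 fold change of -0.12 (edgeR adjusted p = 0.624). ETV1 had 325 to 554 counts in IGF2BP1-NC against 266 to 322 in IGF2BP1-KD, with a log2 fold change of -0.43 (95% interval -0.92 to 0.062, edgeR adjusted p = 0.172) that was -0.14 without IGF2BP1-NC library 1. Whether ETV5 differed from either of them in its change was not tested. SPRY4 and ETV5 both answer to ERK, and their ratio of FPKM was 0.418 to 0.541 in IGF2BP1-NC and 1.01 to 1.69 in IGF2BP1-KD. These ranges could not overlap, since every KD library was above all controls in SPRY4 and below them in ETV5. The ratio thus restates these 2 differences and is no further result. The genes whose log2 CPM followed ETV5 most closely over the 6 libraries were CCDC85C (Pearson r = 0.996), AP2B1 (0.994), TBL1X (0.994), MBOAT2 (0.994) and MTHFD1L (0.993). These are descriptions over 6 points that share their libraries and group difference, and none of these 5 genes is on the pathway lists.

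**Figure D3:**
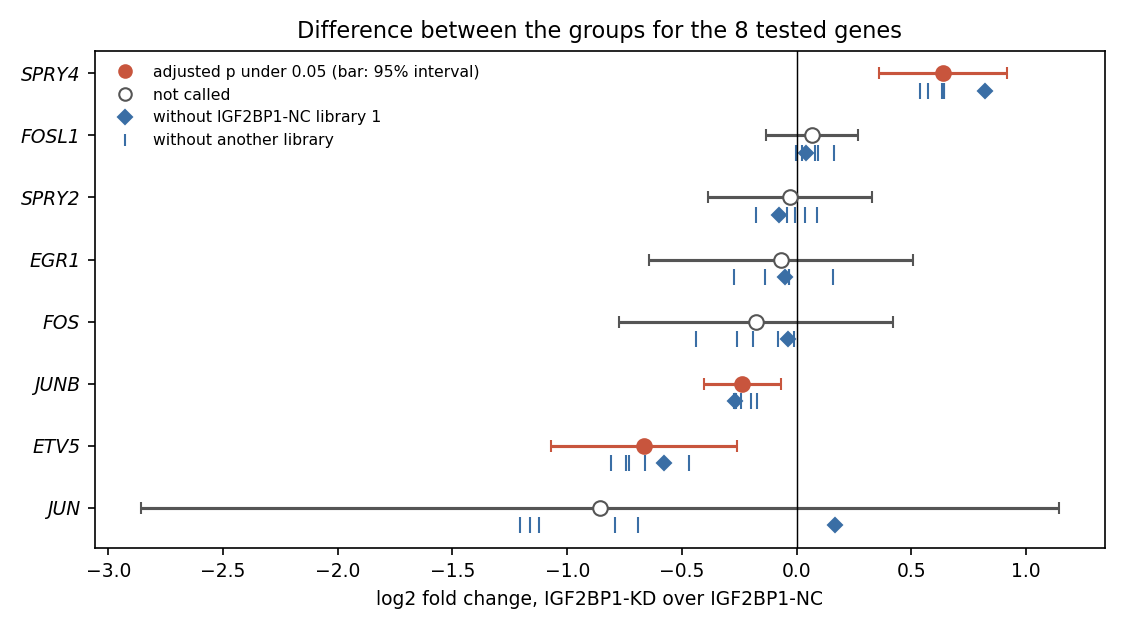
Log2 fold change of IGF2BP1-KD over IGF2BP1-NC (x axis) for the 8 tested genes (y axis), with the 95% interval of edgeR as a bar, filled where the adjusted p was under 0.05, and below it the values with 1 library left out. SPRY4 stayed between 0.54 and 0.82 and ETV5 between -0.81 and -0.47, while JUN moved to 0.17 without IGF2BP1-NC library 1 (diamond).

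The genes around these 10 were then read from lists of the same pathway, beside a background of 13.7% of all tested genes called higher and 14.5% called lower. Of 10 other AP-1 subunits, 8 were tested, FOSL2 rose and JUND fell, and the median log2 fold change was -0.26. Of 20 other immediate early genes, 15 were tested, with 3 higher and 3 lower and a median of -0.039. KLF2, a zinc finger factor of quiescent lymphocytes, rose from 4, 6 and 9 counts to 38, 40 and 44 counts (log2 fold change 2.67, edgeR adjusted p = 3.3e-04). NR4A1, an orphan nuclear receptor induced by antigen and growth signals, rose by 0.82, and IER3, an ERK substrate that favours survival, by 0.58 on the log2 scale, although the call of IER3 was kept in only 1 of the 6 fits that left out a library (the fit without IGF2BP1-NC library 1, at 0.81). Those that fell were ZFP36L1, which directs AU-rich mRNAs to decay, at -0.78, the pseudokinase gene TRIB1 at -0.68, and IER5 at -0.44. Without IGF2BP1-NC library 1, KLF6 (1.06) and KLF10 (0.54) were also called higher and BTG2 (-0.38) lower.

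Among 20 other ERK feedback and output genes, 16 were tested, and 2 rose and 3 fell with a median log2 fold change of -0.094. The list also holds DUSP8 and DUSP16, phosphatases that act mainly on JNK or p38, so these counts are not of ERK output alone. CCND1, which encodes cyclin D1, the link from ERK to the cell cycle, had 4.59, 4.29 and 3.54 FPKM in IGF2BP1-NC and 7.48, 7.14 and 6.24 FPKM in IGF2BP1-KD (log2 fold change 0.74, edgeR adjusted p = 9.6e-04). PEA15, which holds ERK in the cytoplasm, rose by 0.18, a call kept in only 1 of the 6 fits that left out a library. The phosphatases DUSP16 and DUSP9 fell by 1.18 and 0.61 on the log2 scale, and SPRED1, an inhibitor related to Sprouty, fell by 0.34. DUSP16, which acts mainly on JNK, was itself highest in IGF2BP1-NC library 1, at 5.82 FPKM against 2.61 and 3.09 in the other controls and 1.55 to 1.79 in IGF2BP1-KD. Without that library its log2 fold change was -0.76 (edgeR adjusted p = 7.1e-04), while the call was lost on leaving out IGF2BP1-NC library 3 or any of the KD libraries. The call of DUSP9 was lost without IGF2BP1-NC library 2, KD library 2 or KD library 3.

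The count for this list depended on IGF2BP1-NC library 1. Without it, 5 genes were higher and 3 lower, where the share of all tested genes called was 32.8% (15.8% higher and 16.9% lower), and the added calls were DUSP1, DUSP10 and PHLDA1. PHLDA1, an ERK-induced gene, had 261 counts in that library, 75 and 86 in the other controls and 138 to 214 in IGF2BP1-KD. DUSP1, the most abundant phosphatase, had 575 counts there, 270 and 332 in the other controls and 419 to 492 in IGF2BP1-KD. Both were thus higher in every KD library than in controls 2 and 3, and lower than in control 1. The genes called on leaving out KD library 2 or KD library 3 came to 2 in this list.

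**Figure D4:**
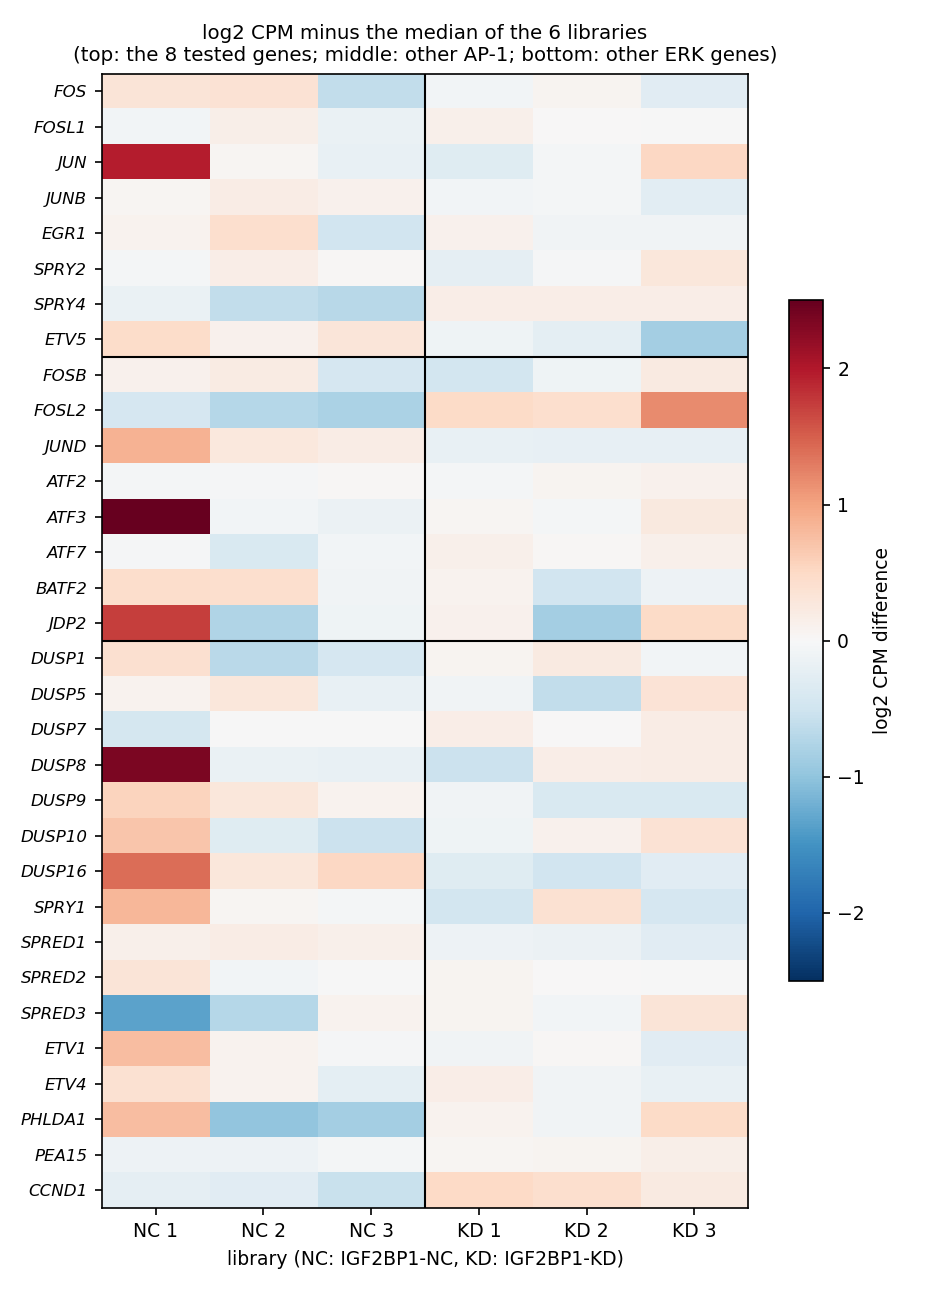
Log2 CPM of each gene minus its median over the 6 libraries (colour, red higher and blue lower, with the colour scale ending at 2.5 in either direction) for the 8 tested genes, 8 other AP-1 subunits and 16 other ERK feedback and output genes. JUN, ATF3, JDP2 and DUSP8 were high in IGF2BP1-NC library 1, and SPRY4, FOSL2 and CCND1 were higher in all IGF2BP1-KD libraries.

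Lists of genes that act upstream of these were read in the same way. Of 26 genes of the RAS-RAF-MEK-ERK cascade, 25 were tested, 3 rose and 3 fell, with a median log2 fold change of -0.029. The exchange factor gene SOS1 fell, at -0.45, a call kept in all 15 alternatives. Its relative SOS2 rose by 0.38, a call kept in only 1 of the 6 fits that left out a library. The adaptor gene SHC1 fell by 0.24, and the RAS inhibitor NF1 and the phosphatase gene PTPN11, whose product SHP2 promotes RAS activation, rose by 0.24 and 0.18, where the calls of SHC1 and PTPN11 were each kept in 2 of those 6 fits and that of NF1 in 4. Without IGF2BP1-NC library 1, HRAS (-0.41) and KSR1 (-0.34) were also lower and GAB2 (0.54) higher. Of 6 genes of serum response factor and its partners, ELK1, ELK4 and MKL2 (now named MRTFB) rose by 0.22, 0.33 and 0.37 on the log2 scale, none fell, and SRF itself was at 0.16 (edgeR adjusted p = 0.0846). The call of ELK4 was kept with each library left out, and those of ELK1 and MKL2 in 3 of the 6 fits each. Of 14 genes of the JNK and p38 branch, 12 were tested and MAPK11 and MAP3K5 fell, at -0.92 and -0.31. MAPK13 (0.83) was called higher and MAPK12 (-0.28) lower without IGF2BP1-NC library 1. The call of MAPK11 was kept in all 15 alternatives, while that of MAP3K5 was kept in 1 of the 6 fits that left out a library and 2 of the 9 others.

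Heat shock genes were read beside JUN, since both respond to cell stress. All 9 listed were tested, 5 rose and none fell, beside 13.7% and 14.5% of all tested genes, with a median log2 fold change of 0.53, the highest median among the pathway lists. They were HSPA1A at 1.34, HSPA8 at 0.85, HSPA1B at 0.82, HSPH1 at 0.75 and HSP90AA1 at 0.53, where HSPA1A and HSPA1B are near-identical copies among which reads may be split. With each library left out these calls were kept, except that of HSPA8 without KD library 3. Without IGF2BP1-NC library 1 the rises were smaller, from 0.44 (HSP90AA1) to 1.27 (HSPA1A), with HSPA8 at 0.67. The summed level of the list was 4430 to 5960 CPM in IGF2BP1-NC and 8760 to 9150 CPM in IGF2BP1-KD. The other 4 genes of the list were not called: DNAJB1 at -0.051, BAG3 at 0.088, HSPB1 at 0.28 and HSPA6 at -0.95. The rise was thus one of these 5 genes and not of the whole list. It and the excess of JUN, ATF3 and HSPA6 were in different libraries.

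**Figure D5:**
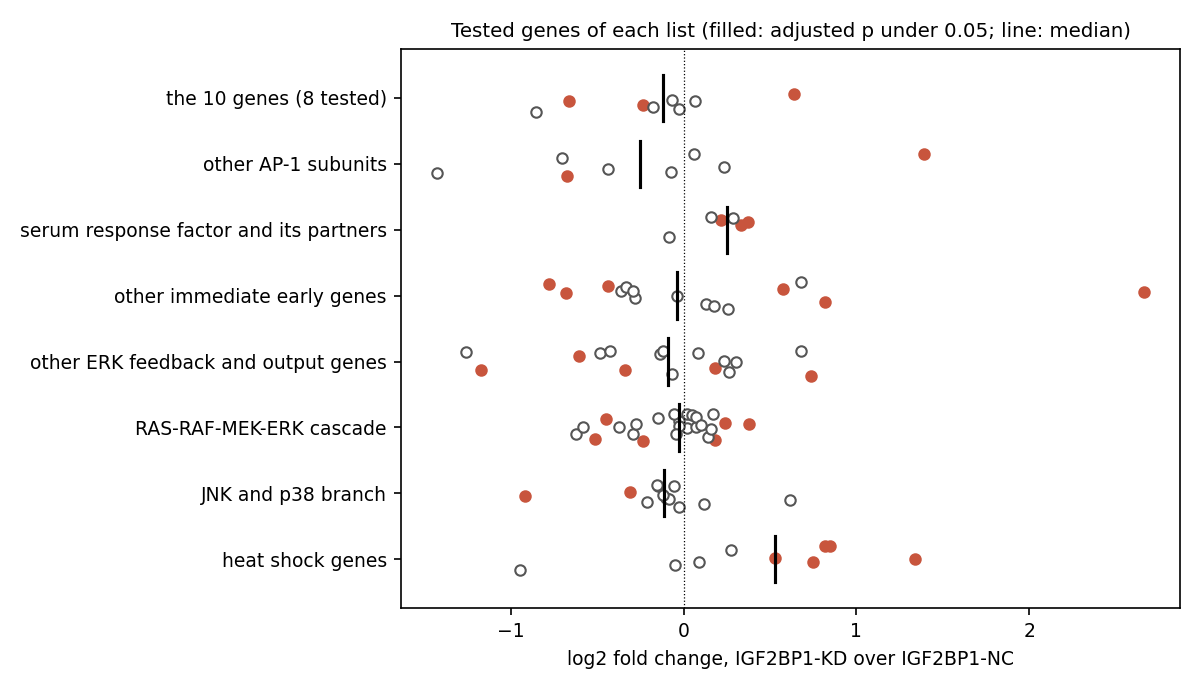
Log2 fold change of IGF2BP1-KD over IGF2BP1-NC (x axis) for each tested gene of the 10 and of 7 pathway lists (y axis, points spread vertically for sight only), filled where edgeR's adjusted p was under 0.05, with the median as a line. Medians were -0.12 for the 8 tested genes, -0.26 for other AP-1 subunits and 0.53 for heat shock genes.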

How the data were processed

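RNA from 6 libraries labelled H929 was sequenced, 3 IGF2BP1-NC and 3 IGF2BP1-KD, grouped by the labels. The authors trimmed reads with Trimmomatic, aligned them to GRCh38 with HISAT2 and counted them per gene with HTSeq. Versions, annotation release and strand setting are not given in the sources used here. The deposited counts are whole and not normalized. The deposited FPKM values, attributed to Cufflinks, equal those counts per gene length and library total and are no second measurement.

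Counts of 20030 genes were fitted in R 4.3.3 with edgeR 4.0.16 (TMM, filterByExpr, robust glmQLFit, glmQLFTest, two-sided, Benjamini-Hochberg over 11994 genes). The biological coefficient of variation was 9.55%. FPKM alternatives used limma 3.58.1 on log2(FPKM + 1) or log2(FPKM + 0.1), for genes averaging 1 FPKM or more or without that filter, where fold changes of low genes are understated. Other alternatives were DESeq2 1.42.0, limma-voom, upper-quartile factors, scaling to library size alone, a fit of unfiltered counts, a replicate block, and each library left out. On simulated counts for this comparison (12011 genes), edgeR called 100 of 100 2-fold changes, 100 of 100 4-fold changes and 13 unchanged genes. Changes under 2-fold, such as those of SPRY4, ETV5 and JUNB, were not tested in this way. Whether the same rates hold for genes as low as FOS or as variable as JUN was not tested.

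The members, lists and alternatives were chosen with earlier results of these data known. All 10 members are named, and of each pathway list every called gene where these were 6 or fewer, except for a result that is not reported here. For ETV5, the called member with the largest change, the 5 genes of highest Pearson r are named. All 145 list genes were matched, 4 by an older symbol. Positions are from GENCODE release 44. The 3′ UTR counts used 11489 tested genes.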

Additional observations from a re-analysis of the deposited data

How the results depend on the processing

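SPRY4 was called higher in all 15 alternatives, and the count of all called genes stayed within 2290 to 3991, beside 3386. With limma on log2(FPKM + 1) without a filter only 1 member was called (0 lower), since JUNB (-0.22) and ETV5 (-0.56) missed the threshold. With upper-quartile factors JUNB (-0.21) missed it, which left 1 member lower, and SPRY2 turned to 0.0020. Called genes of at least 2-fold numbered 120, 238 and 109 with the FPKM settings (pseudocount 1, pseudocount 0.1, and no filter), beside 567. Called genes in a list came to 1 for other AP-1 subunits with upper-quartile factors, library size alone, unfiltered counts or unfiltered FPKM. They came to 3 (unfiltered counts) and 2 (unfiltered FPKM) for ERK feedback genes, to 3 for the cascade and 5 for erythroid markers (both unfiltered FPKM), and to 6 for granulocyte and monocyte markers (DESeq2). They came to 0 for plasma cell markers with each FPKM setting. The JNK and p38 list came to 1 with DESeq2, library size only, upper-quartile factors and each FPKM setting. The cause was not tested.

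With 1 library left out, members called were 1 to 2 (0 to 1 lower) and genes called lower 1146 to 2062. ETV5 lay at -0.81 to -0.47, JUNB at -0.27 to -0.17 and SPRY4 at 0.54 to 0.82. Sign changes occurred for JUN (-1.21 to 0.17), EGR1 (-0.28 to 0.16), FOSL1 (-0.00079 to 0.16), SPRY2 (-0.18 to 0.088), ATF3 (-1.85 to 0.19) and DUSP8 (-1.66 to 0.16). List calls were 1 to 3 (AP-1), 1 to 3 (serum response factor), 2 to 8 (ERK feedback), 3 to 8 (cascade), 1 to 3 (JNK and p38), 0 to 1 (plasma cell) and 2 to 7 (granulocyte and monocyte).

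Libraries share replicate numbers across groups, but deviations of same-numbered libraries correlated at -0.052, 0.036 and -0.11, so the numbers were not taken as a pairing. With the replicate number as a block, 3 members and 2913 genes were called, and the JNK and p38 list came to 1. FOS and EGR1 vary too much between controls, and DUSP4 and DUSP6 are too low, for small changes to be detected.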

Other observations

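The cell identity lists were read beside the same background of 13.7% of all tested genes called higher and 14.5% called lower. Of 12 granulocyte and monocyte markers 8 were tested, 3 rose and none fell (median log2 fold change 0.47, beside -0.0048 for all tested genes). The number called ran from 2 to 7 with 1 library left out. Of 15 erythroid markers 2 rose and 6 fell (median -0.23), and of 5 tested plasma cell markers 1 rose, SLAMF7, from 4 to 5 counts per control library to 42 to 181 per KD library, a call lost without IGF2BP1-NC library 1 or 3. XBP1, a plasma cell factor that also answers to endoplasmic reticulum stress, had 2689 counts in IGF2BP1-NC library 1 and 1181 to 1365 counts in the other libraries.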
